A study of Macaca mulatta with 136 samples.

Results

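The visual cycle genes examined here are RPE65, LRAT, RLBP1, RDH5, RDH10, RDH11, STRA6, RBP3, ABCA4 and RGR, chosen by name. Of the 10 names, 9 matched the gene column of the files, among 19422 gene identifiers in all, and RDH5 did not, although 1 entry carries that name in a column of human symbols. Tissue came from postmortem eyes of 2 adult rhesus monkeys, RM03 and RM04, with no treatment or genetic change named. The right and the left eye of each animal were punched (2 mm) in 4 places, namely the fovea/macula, called the fovea below, the perimacula, a nasal site and the periphery. Each punch was separated into neural retina and RPE/choroid, which holds the retinal pigment epithelium (RPE) with the vessels, pigment cells and connective tissue behind it. The replicates of each tissue and place are thus 4 eyes, and there are 32 libraries in all. Since the 4 eyes come from 2 animals, they are not 4 independent animals, and the spread between them includes the spread between fellow eyes.

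The visual cycle returns the light-sensitive chromophore of the opsins to its active form after it has absorbed light. All-trans retinal leaves the opsin in the photoreceptor outer segment, is carried across the disc membrane and reduced to retinol, and passes to the RPE, where it is esterified, isomerized and oxidized to 11-cis retinal and sent back. Müller glia, the main support cells of the retina, hold some of the same retinoid-handling proteins and have been linked to a supply route for cones.

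The levels below are estimated read counts brought to a common library total (CPM), with totals scaled by the trimmed mean of M-values (TMM). They serve to compare a gene between samples and not a gene with another gene. Where the values of 4 eyes are given in a row, they belong to the right and left eye of RM03 and then the right and left eye of RM04. Log2 fold changes with standard errors (SE) come from edgeR's quasi-likelihood test over all genes with the animal as a covariate, and a gene was called at a Benjamini-Hochberg adjusted p under 0.05. All 9 genes passed the filter on low counts in every comparison. Library totals ranged from 42448903 to 78574055 estimated counts. The periphery libraries were sequenced on a flow cell of their own, so that the periphery and its flow cell cannot be told apart, whereas the other 3 locations shared their flow cells. In those 24 libraries, the estimates for a gene from the 2 flow cells of the same library differed by at most 0.416 on the log2 scale, for RBP3.

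The RPE and rod markers followed the labelled tissues, and the cone and Müller glia markers did so in part. The 11 RPE marker genes found in the files (among them BEST1, TYRP1 and TTR) were lower in retina at the fovea in 11 of 11 cases, and the 9 rod markers were higher in retina in 9 of 9. Of the 8 cone markers, 7 were called higher and 1 lower in retina there. Of the 7 Müller glia markers, 5 were called higher and 2 lower. The Müller glia sum averaged 1039 CPM in foveal retina and 3082 CPM in foveal RPE/choroid. A pair of RPE/choroid libraries stood apart. In the periphery library of the left eye of RM03, BEST1 was at 173 CPM, against 499 to 680 CPM in the other 3 eyes. The RPE markers did not move together there. TTR (1244 CPM), SLC45A2, SERPINF1, DCT and ITGAV were also lowest in this eye. TYRP1 (2578 CPM), PMEL, TRPM1 and MERTK lay within the range of the other eyes, and CRYAB was highest (831 CPM). In the fovea library of the right eye of RM04, the rod markers summed to 539 CPM, against a lowest value of 51.1 CPM and a median of 96.2 CPM over the 4 eyes. Each result that changed without either library is given with its value below.

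RPE65, LRAT, STRA6, RGR, RLBP1, RDH10 and RDH11 were higher in RPE/choroid than in retina at the fovea, and ABCA4 and RBP3 were higher in retina. All 9 genes were called there, where 74.6% of all genes tested were called, 36.8% lower and 37.8% higher in retina. The median log2 fold change of the 9 genes, retina minus RPE/choroid, was -3.76, beside 0.04 over all genes. At the perimacula 8 of the 9 genes were called, 6 lower and 2 higher in retina (75.6% of all genes called, 37.8% lower and 37.8% higher). In nasal tissue 9 were called, 7 lower and 2 higher (76.2% of all genes, 38.6% lower and 37.6% higher), and at the periphery 6, of which 4 were lower and 2 higher (74.3% of all genes, 37.1% lower and 37.2% higher). Such counts are read against these shares, which were high for all genes. What set the members apart from each other was the size of the difference and how it changed with location.

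**Figure D1:**
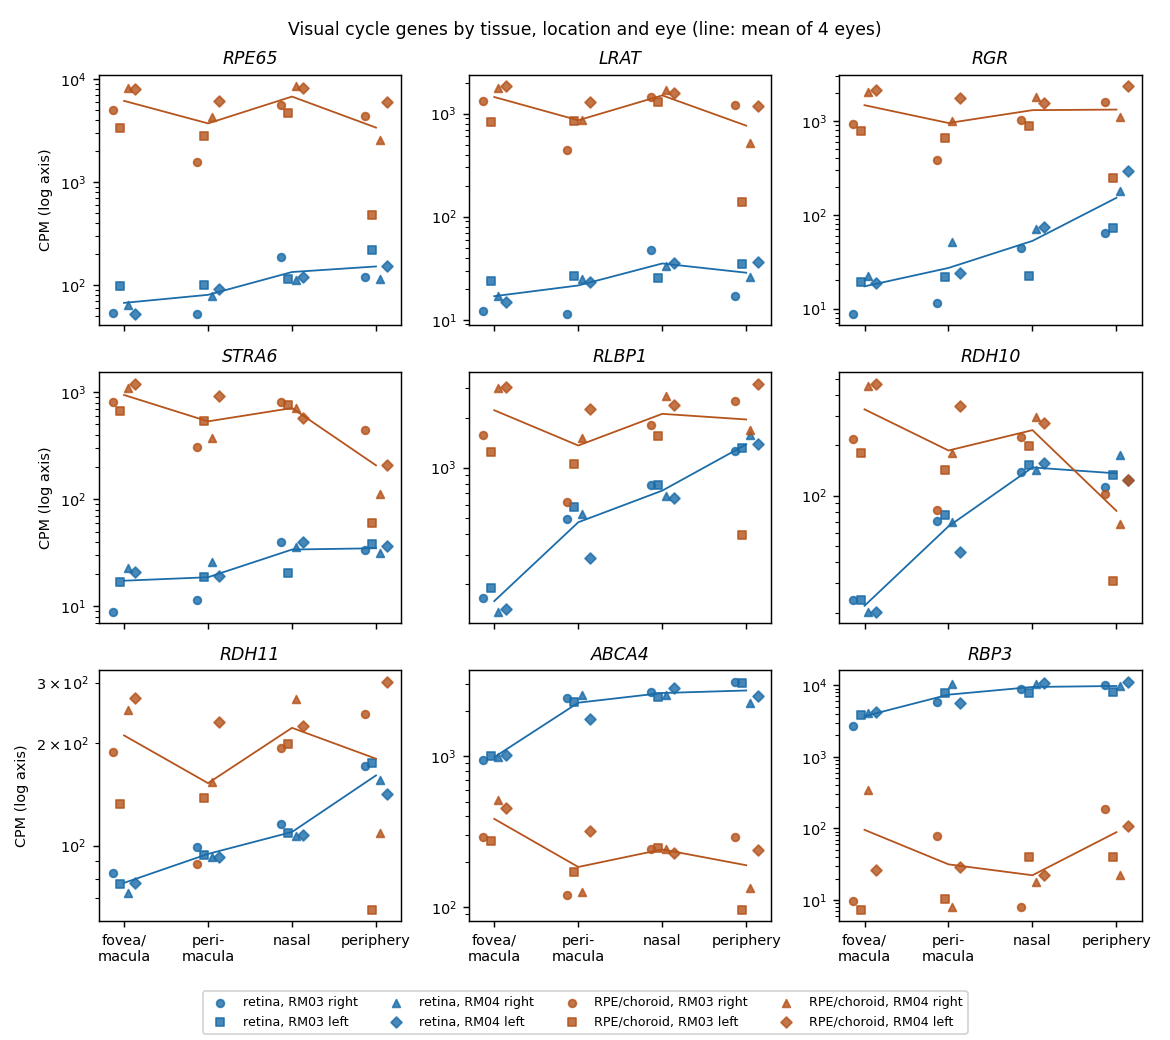
CPM (log axis) of each gene at the 4 locations, with a point for each eye (shape: eye; blue: retina; brown: RPE/choroid) and a line through the means of 4 eyes. RPE65 and LRAT stay far apart between the tissues at every location, RLBP1, RDH10 and RDH11 converge toward the periphery, and the RPE/choroid periphery library of the left eye of RM03 lies lowest for RPE65 (481 CPM).

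RPE65, the isomerase that makes 11-cis retinol in the RPE, had the largest fold difference between the tissues at the fovea among the genes higher in RPE/choroid. At the fovea it measured 5046, 3333, 8146 and 8094 CPM in RPE/choroid and 53.3, 98.6, 63.2 and 52.7 CPM in retina. The tissues did not overlap at any location. The log2 fold change, retina minus RPE/choroid, was -6.39 ± 0.63 (SE, n = 4 eyes, adjusted p = 1.41e-08) at the fovea and -4.42 ± 0.58 (adjusted p = 8.21e-07) at the periphery. LRAT, which esterifies retinol and so makes the substrate of RPE65, differed in a like way, by -6.31 ± 0.58 at the fovea and -4.75 ± 0.54 at the periphery. STRA6, the cell-surface receptor that takes up retinol from plasma retinol-binding protein, differed by -5.72 ± 0.55 at the fovea and by -2.61 ± 0.47 at the periphery (adjusted p = 4.86e-05).

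RGR, an opsin-like protein of the RPE and Müller glia that binds all-trans retinal, differed by -6.22 ± 0.55 at the fovea and by -3.30 ± 0.48 at the periphery. In retina it rose from 8.78, 19.2, 22.4 and 18.7 CPM at the fovea to 64, 72.3, 182 and 290 CPM at the periphery. Both eyes of RM04 lay above both eyes of RM03 at the periphery, and the highest peripheral retina value, 290 CPM, exceeded the lowest RPE/choroid value there, 244 CPM.

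From fovea to periphery, the signed log2 difference between the tissues changed most for RDH10 and RLBP1, closely followed by STRA6. RLBP1 encodes the carrier of 11-cis retinoids (CRALBP) in RPE and Müller glia. It measured 164, 189, 136 and 142 CPM in foveal retina against 1577, 1248, 2996 and 3038 CPM in foveal RPE/choroid, a log2 fold change of -3.67 ± 0.48 (adjusted p = 8.34e-07). At the periphery it measured 1259, 1315, 1562 and 1383 CPM in retina and 2519, 392, 1694 and 3191 CPM in RPE/choroid. The peripheral tissues overlapped through the left eye of RM03, and the fold change of -0.47 ± 0.43 was not called (adjusted p = 0.332). Without that eye's RPE/choroid periphery library it was -0.82 and was called (adjusted p = 0.0428). At the perimacula the RLBP1 difference of -1.40 ± 0.45 (adjusted p = 0.00782) was not called without the right eye of RM04 (adjusted p = 0.059) or without its left eye (adjusted p = 0.123).

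RDH10, a retinol dehydrogenase of RPE and Müller glia that also serves retinoic acid synthesis, went from 14.9-fold higher in RPE/choroid at the fovea to no called difference at the periphery. At the fovea it measured 23.7, 23.9, 20.2 and 20.2 CPM in retina and 218, 179, 450 and 466 CPM in RPE/choroid, with a log2 fold change of -3.76 ± 0.42 (adjusted p = 8.23e-08). At the periphery it measured 113, 133, 175 and 123 CPM in retina and 102, 30.9, 67.3 and 124 CPM in RPE/choroid. Peripheral retina was the higher tissue in 3 of 4 eyes, with a log2 fold change of 0.75 ± 0.38 and an adjusted p of 0.0767. That value was called without the right eye of RM03 (1.06, adjusted p = 0.0397), without the left eye of RM04 (1.06, adjusted p = 0.0229) and with the nasal libraries in the fit (0.76, adjusted p = 0.0371). The called difference in nasal tissue, -0.72 ± 0.33, sat at the threshold (adjusted p = 0.0486) and was not called with the eye as a block (adjusted p = 0.0562), and at the perimacula the call was lost without the left eye of RM04 (-0.78, adjusted p = 0.0826). The nasal call was also lost without the right eye of RM03 (adjusted p = 0.0916), the right eye of RM04 (adjusted p = 0.225) or its left eye (adjusted p = 0.0857). RLE factors (adjusted p = 0.0581), plain library totals (adjusted p = 0.1335) and no animal covariate (adjusted p = 0.0612) lost it as well. So did no low-count filter (adjusted p = 0.0535) and a stricter filter (adjusted p = 0.0526).

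RDH11, a broadly expressed retinol dehydrogenase of RPE and photoreceptors, had the smallest tissue difference of the 9 genes at the fovea, -1.36 ± 0.34 (adjusted p = 0.0014). It was not called at the perimacula (-0.63 ± 0.34, adjusted p = 0.10) or at the periphery (-0.15 ± 0.34, adjusted p = 0.704), where its RPE/choroid values ran from 64.8 to 302 CPM around retina values of 142 to 174 CPM. Its perimacular difference was called without the RPE/choroid periphery library of the left eye of RM03 (-0.64, adjusted p = 0.0401) and with the nasal libraries in the fit (-0.66, adjusted p = 0.0448).

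No entry of the files is named RDH5, the 11-cis retinol dehydrogenase of the RPE. The entry ENSMMUG00000013228 is named BLOC1S1 in the files' gene column and RDH5 in their human symbol column. Since the names disagree, reads of either gene may be counted in this entry, and its values are given without assigning them to RDH5. It measured 286 to 555 CPM in foveal RPE/choroid and 82.3 to 92.8 CPM in foveal retina, with a log2 fold change of -2.24 ± 0.25. In retina it was called higher at the periphery than at the fovea (-0.61 ± 0.09, adjusted p = 8.67e-05), and in RPE/choroid the 2 locations differed by 0.30 ± 0.27 (adjusted p = 0.386).

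ABCA4 and RBP3 were the retina genes of the group. ABCA4, the transporter that clears retinal from photoreceptor disc membranes and is also found in RPE, measured 944, 1006, 986 and 1014 CPM in foveal retina and 294, 273, 516 and 456 CPM in foveal RPE/choroid. The tissues did not overlap, and the log2 fold change rose from 1.42 ± 0.33 at the fovea (adjusted p = 6.39e-04) to 3.66 ± 0.36 at the perimacula, 3.44 ± 0.30 in nasal tissue and 3.84 ± 0.36 at the periphery. RBP3, the retinoid carrier that photoreceptors secrete into the space facing the RPE (IRBP), was at 2703 CPM or more in every retina library and at most 340 CPM in RPE/choroid. Foveal RPE/choroid measured 9.61, 7.29, 340 and 26.3 CPM of RBP3, with the highest value in the library that was also highest in rod markers.

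Within the neural retina, every one of the 9 genes had its lowest mean at the fovea. Against the nasal location, which shared flow cells with the fovea, 9 of 9 genes were called lower at the fovea, where 52.2% of all genes were called, 27.2% lower and 25.1% higher. Against the perimacula 5 of 9 were called lower (35.2% of all genes called, 16.2% lower and 19% higher), and against the periphery 8 of 9 (67% called, 36% lower and 31% higher). The median log2 fold changes of the 9 genes were -1.32, -0.48 and -1.36 in those comparisons, beside -0.04, 0.01 and -0.06 over all genes. In bulk punches, fewer cells of a type and less RNA per cell cannot be told apart, and this holds for each change with location given here.

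**Figure D2:**
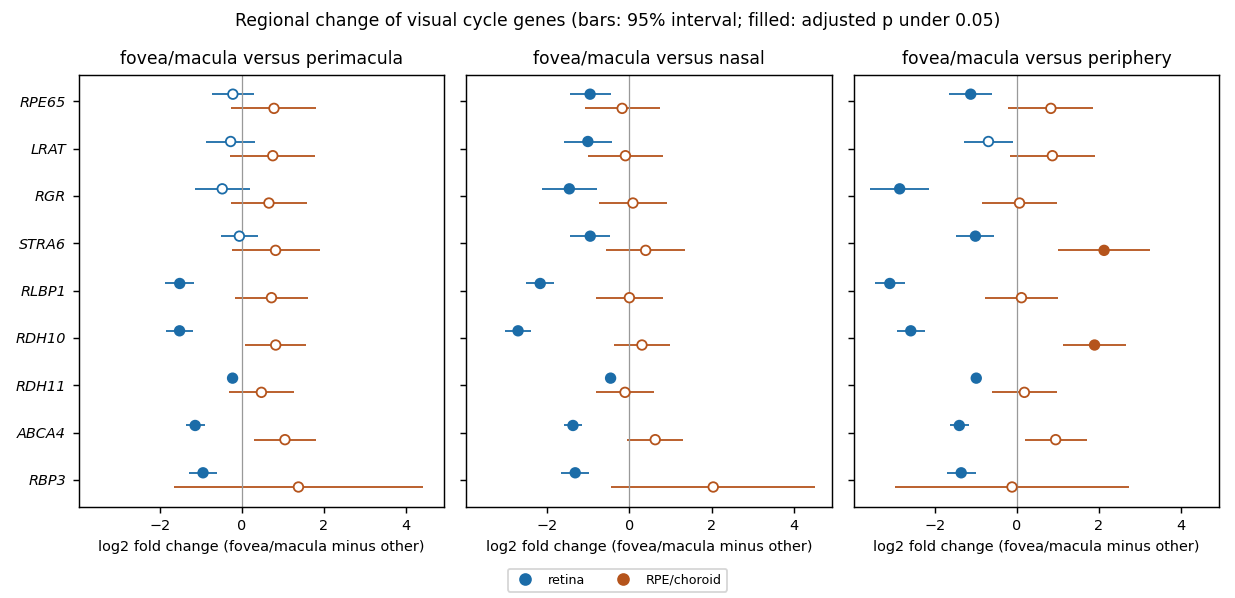
Log2 fold change of the fovea against each other location in retina (blue) and RPE/choroid (brown), with bars of 95% intervals (normal approximation, not adjusted for the number of genes) and filled points for adjusted p under 0.05. Retina points lie to the left of 0 for all 9 genes, and in RPE/choroid STRA6 (2.12) and RDH10 (1.89) are called higher at the fovea than at the periphery.

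RLBP1, RGR and RDH10 had the steepest slopes in retina. RLBP1 measured 490, 579, 525 and 285 CPM at the perimacula, 790, 790, 678 and 653 CPM in nasal tissue and 1259 to 1562 CPM at the periphery. The foveal values of 136 to 189 CPM were below all of these, so that its order was fovea, perimacula, nasal location and periphery. RLBP1 was 8.75-fold higher at the periphery than at the fovea (log2 fold change, fovea minus periphery, -3.09 ± 0.19, adjusted p = 1.27e-07). Perimacula and nasal location, neighbours in that order, differed by -0.64 ± 0.17 with an adjusted p of 0.0703.

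RDH10 in retina measured 70.7, 76.4, 69.4 and 45.9 CPM at the perimacula and 138, 152, 142 and 157 CPM in nasal tissue. Its fold change from the fovea was already full in nasal tissue, -2.71 ± 0.16 (adjusted p = 3.14e-08), against -2.58 ± 0.17 for the periphery. Nasal location and periphery differed by 0.12 ± 0.15 (95% interval from -0.18 to 0.42). RDH10 was the only one of the 9 genes called by edgeR between perimacula and nasal location (-1.17 ± 0.16, adjusted p = 0.00271), a comparison in which 1.49% of all genes were called, 1.05% lower and 0.446% higher at the perimacula. DESeq2 also called RLBP1 (adjusted p = 0.00762), RDH11 (adjusted p = 0.0105) and STRA6 (adjusted p = 0.0128) there. RGR in retina was 8.78-fold higher at the periphery than at the fovea (-2.85 ± 0.36, adjusted p = 2.39e-05), and it did not separate fovea and perimacula (-0.48 ± 0.34, adjusted p = 0.308).

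The photoreceptor genes ABCA4 and RBP3 stepped up outside the fovea and then changed less. ABCA4 measured 2447, 2278, 2559 and 1777 CPM at the perimacula, 2487 to 2818 CPM in nasal tissue and 2240 to 3115 CPM at the periphery, against at most 1014 CPM at the fovea. The fovea differed from the perimacula by -1.14 ± 0.12 (adjusted p = 5.98e-05), and the 95% interval of the nasal location against the periphery ran from -0.25 to 0.18. RBP3 measured 2703, 3828, 4089 and 4213 CPM at the fovea and 5947, 7728, 10401 and 5600 CPM at the perimacula, a log2 fold change of -0.95 ± 0.18 (adjusted p = 0.00188). Against the periphery, with 8108 to 11221 CPM, the change was -1.36 ± 0.18.

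RDH11 rose in small steps with little spread, from 72.8 to 83.1 CPM at the fovea to 92.3 to 99.0 CPM at the perimacula, 106 to 116 CPM in nasal tissue and 142 to 174 CPM at the periphery. Fovea and periphery did not overlap (-0.99 ± 0.06, adjusted p = 1.40e-07). The smaller step from the fovea to the perimacula, -0.23 ± 0.06, was called (adjusted p = 0.0141), but not without the right eye of RM03 (adjusted p = 0.0665) or the right eye of RM04 (adjusted p = 0.0712). With no animal covariate it was not called either (adjusted p = 0.0598).

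RPE65, LRAT and STRA6 rose less in retina than RLBP1, RGR and RDH10. Against the periphery the fovea differed by -1.13 ± 0.27 for RPE65 (adjusted p = 0.00261) and by -1.01 ± 0.24 for STRA6 (adjusted p = 0.00243). LRAT differed by -0.69 ± 0.30 and was not called (adjusted p = 0.0595). It was called by DESeq2 (-0.66, adjusted p = 0.0385) and with the nasal libraries in the fit (-0.70, adjusted p = 0.048). It was also called without the right (-0.75, adjusted p = 0.00302) or the left eye of RM03 (-0.75, adjusted p = 0.00411), and with the eye as a block (-0.68, adjusted p = 0.00237). The block also brought the LRAT difference between perimacula and periphery under the threshold (-0.43, adjusted p = 0.0359). The LRAT difference between fovea and nasal location, -1.01 ± 0.30 (adjusted p = 0.0104), was not called without the right (adjusted p = 0.0579) or the left eye of RM04 (adjusted p = 0.0613).

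Among the location pairs without the fovea, 6 of 9 genes were called lower at the perimacula than at the periphery of the retina (50.3% of all genes called, 26.9% lower and 23.4% higher). They were RPE65, RLBP1, RDH10, RDH11, STRA6 and RGR, and RPE65 was not called without the right (adjusted p = 0.0522) or the left eye of RM04 (adjusted p = 0.0523). ABCA4 was called there without the right eye of RM04 (-0.41, adjusted p = 0.0177). Between nasal location and periphery, 3 of 9 genes were called lower in nasal tissue (48.7% called, 24.2% lower and 24.5% higher), namely RLBP1 (-0.93 ± 0.17), RDH11 (-0.54 ± 0.05) and RGR (-1.40 ± 0.34).

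Markers of other cell types moved with location in the same retina libraries. The RPE markers, 9 genes in the sum, rose from 257 to 300 CPM at the fovea to 988 to 1497 CPM at the periphery, and 10 of the 11 listed were called lower at the fovea. BEST1 alone changed by -2.82 ± 0.26 and TTR by -3.23 ± 0.28, beside a median of -1.98 over the 11. The rod markers rose from 4013 to 4610 CPM to 23891 to 28040 CPM, and the Müller glia markers from 908 to 1168 CPM to 2654 to 3828 CPM, with 9 of 9 and 6 of 7 called lower at the fovea. The Müller glia sum is not particular to retina, since it averaged 3082 CPM in foveal RPE/choroid. None of the summed RPE or Müller glia markers was at 0 in any retina library. The part of these cell types in the changes of the visual cycle genes was not tested.

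The retina level of each gene was also set against the RPE/choroid of the same eye and location. RPE65 in retina was a median of 0.916% of the RPE/choroid level at the fovea, 2.55% at the perimacula, 1.94% in nasal tissue and 3.54% at the periphery, where the left eye of RM03 reached 45.4%. The corresponding shares of BEST1, a chloride channel of the RPE, were 1.29%, 3.41%, 4.51% and 14.1%, and those of TYRP1, a melanin enzyme, 0.953%, 1.52%, 2.35% and 4.90%. The 11 RPE markers differed widely by this measure. At the fovea they ran from 0.113% for PMEL, a pigment protein that melanocytes also make, to 30.6% for TRPM1. TRPM1 is also on the list of markers for bipolar cells, which belong to the retina, and the next highest share was 19.6% for ITGAV. At the periphery the markers ran from 0.18% for PMEL to 94.0% for ITGAV. The medians of RPE65 and LRAT (0.935% and 4.06% at the fovea and the periphery) were below those of BEST1 and above those of PMEL at every location. RGR ran beside BEST1, with 1.03% at the fovea and 14.4% at the periphery, and STRA6 rose from 1.91% to 22.5%.

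RLBP1, RDH10 and RDH11 lay above BEST1, TYRP1 and TTR in median at every location. At the fovea, SERPINF1 (16.1%), MERTK (10.9%), CRYAB (11.5%), ITGAV (19.6%) and TRPM1 exceeded RLBP1 and RDH10, whereas RDH11 was above all listed RPE markers. At the periphery, ITGAV (94.0%) exceeded RLBP1, and RDH10 and RDH11 were above all of them. In nasal tissue RDH11 was below TRPM1 (51.2% against 53.4%). RLBP1 in retina was a median of 7.53% of the RPE/choroid level at the fovea, 44.7% at the perimacula and 71.1% at the periphery. For RDH10 the medians were 7.67%, 46.2% and 185%, and for RDH11 they were 36.8%, 64.4% and 107%. In the other direction, RBP3 in RPE/choroid was a median of 0.49% of its retina level at the fovea and 0.724% at the periphery, below the summed rod markers (2.23% and 1.83%). ABCA4 in RPE/choroid was 38.1% of its retina level at the fovea, with a lowest eye of 27.2%, and between 6.25% and 9.43% in median at the other locations. The summed cone markers were at 9.92% at the fovea, 7.19% at the perimacula, 15.6% in nasal tissue and 7.92% at the periphery, thus below ABCA4 in median at the fovea and above it elsewhere. One of them, CNGB3, was itself higher in foveal RPE/choroid (299 ± 124 CPM, SD, n = 4) than in foveal retina (74.1 ± 19.7 CPM). CNGB3 made up most of the cone sum in foveal RPE/choroid, which averaged 387 CPM. The summed rod markers were below ABCA4 in median at every location, with 0.548% at the perimacula and 0.794% in nasal tissue.

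**Figure D3:**
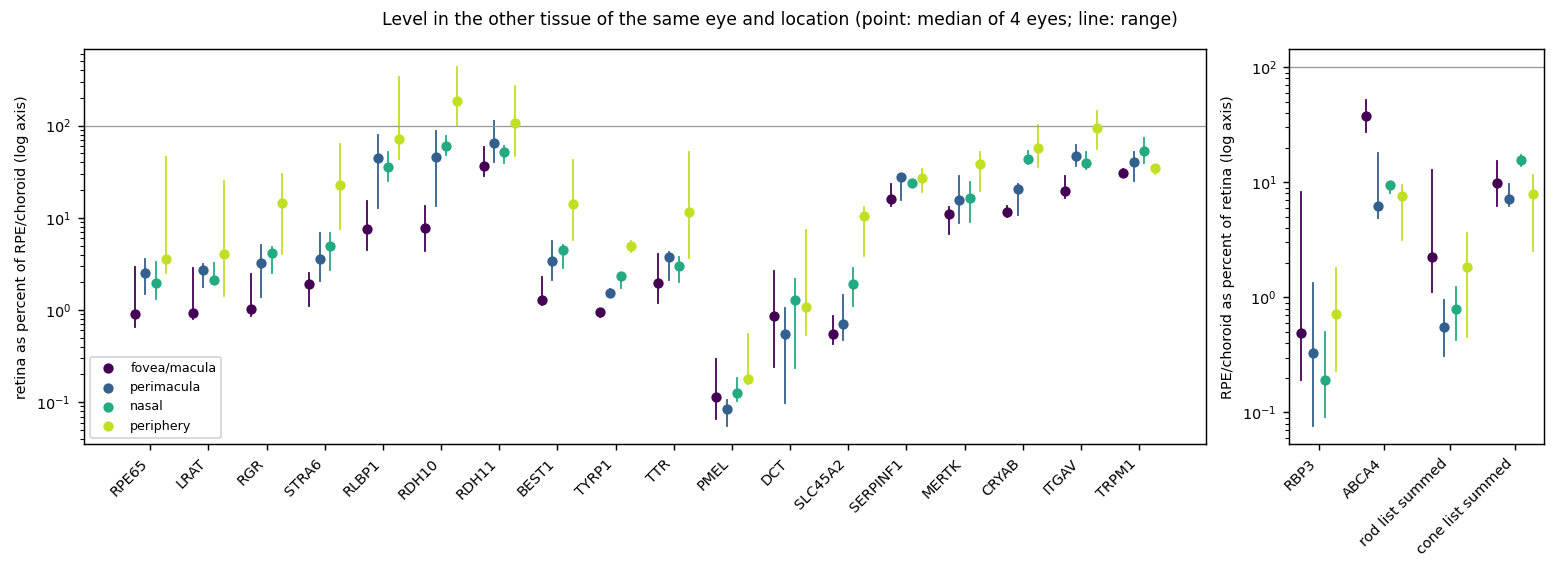
Level in the tissue where a gene is lower, as percent of the other tissue of the same eye and location (log axis, point: median of 4 eyes, line: lowest to highest eye). The 11 RPE markers, from BEST1 to TRPM1, spread from 0.113% to 30.6% in median at the fovea. The highest is TRPM1, which is also a listed marker of bipolar cells of the retina. RLBP1 and RDH10 lie within this spread there (7.53% and 7.67%). ABCA4 (38.1%) lies above the summed rod and the summed cone markers at the fovea.

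In RPE/choroid few differences between locations were called, and the standard error of the difference between fovea and periphery was larger than in retina for all 9 genes. From fovea to perimacula none of the 9 genes was called by edgeR, where 0.0447% of all genes were, 0.0191% higher and 0.0255% lower at the fovea, and DESeq2 also called none. In that comparison 1 gene, ABCA4 (1.05 ± 0.38, adjusted p = 0.355), had an unadjusted p under 0.05. All 9 estimates were above 0, with a median of 0.78 beside -0.01 over all genes. They come from the same punches and are not independent of each other. For RBP3, the foveal mean rested on 340 CPM in the right eye of RM04, against 9.61, 7.29 and 26.3 CPM in the other eyes. In the comparison with the nasal location none was called by either tool (0.361% of all genes in edgeR, 0.209% higher and 0.152% lower), none had an unadjusted p under 0.05, and the median was 0.09.

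Against the periphery, 2 of 9 genes were called higher in foveal RPE/choroid, where 44.1% of all genes were called, 21.2% higher and 22.9% lower. They were STRA6 and RDH10, and DESeq2 called 2 as well. STRA6 measured 803, 668, 1099 and 1195 CPM at the fovea and 446, 60.7, 113 and 210 CPM at the periphery. The locations did not overlap, with a log2 fold change of 2.12 ± 0.57 and an adjusted p of 0.0118. The STRA6 call was lost without the right eye of RM04 (1.79, adjusted p = 0.0711) and without its left eye (2.09, adjusted p = 0.0591).

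RDH10 in RPE/choroid measured 218, 179, 450 and 466 CPM at the fovea and 102, 30.9, 67.3 and 124 CPM at the periphery, again without overlap. It was 4.04-fold higher at the fovea (1.89 ± 0.39, adjusted p = 0.00261). Both genes were also called higher in nasal tissue than at the periphery, STRA6 by 1.76 ± 0.50 (adjusted p = 0.0112) and RDH10 by 1.60 ± 0.35 (adjusted p = 0.00205), as the 2 called of 9 genes where 44.6% of all genes were called, 21.8% higher and 22.8% lower. Without the right eye of RM04 the STRA6 call was lost (1.55, adjusted p = 0.0741), and without the right eye of RM03 RPE65 (1.54, adjusted p = 0.0319) and LRAT (1.54, adjusted p = 0.0321) were called as well. Between perimacula and periphery RDH10 was the 1 gene called (34.9% of all genes called, 17.7% higher and 17.2% lower), by 1.07 ± 0.38 at an adjusted p of 0.0494. That call was lost without the left eye of RM03 (adjusted p = 0.182), without the right (adjusted p = 0.136) or the left eye of RM04 (adjusted p = 0.20), and without the RPE/choroid periphery library of the left eye of RM03 (0.86, adjusted p = 0.088) or the fovea library of the right eye of RM04 (1.07, adjusted p = 0.0632). It was also lost with plain library totals (adjusted p = 0.0617) and with no low-count filter (adjusted p = 0.052). No animal covariate (adjusted p = 0.116) and a fit of the compared locations alone (adjusted p = 0.1035) lost it too. STRA6 was called between perimacula and periphery without the right eye of RM03 (2.36, adjusted p = 0.00582) and with the nasal libraries in the fit (1.33, adjusted p = 0.0497). RLBP1 was called there without the periphery library of the left eye of RM03 (-0.91, adjusted p = 0.0464).

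From perimacula to nasal location edgeR called none of the 9 (3.07% of all genes, 1.89% higher and 1.17% lower at the perimacula) and none had an unadjusted p under 0.05, nor did DESeq2 call any. With the libraries of these 2 locations fitted alone, RPE65 (-0.96, adjusted p = 0.0309) and LRAT (-0.85, adjusted p = 0.0457) were called lower at the perimacula.

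The other genes did not separate fovea and periphery of the RPE/choroid in this test. RPE65 measured 4391, 481, 2591 and 6068 CPM at the periphery, lower than at the fovea in 4 of 4 eyes, with a log2 difference of 0.83 ± 0.53 (95% interval from -0.21 to 1.86, adjusted p = 0.228). ABCA4 differed by 0.94 ± 0.38 (adjusted p = 0.0677). It was called with the eye as a block (1.06, adjusted p = 0.0467), with the nasal libraries in the fit (0.96, adjusted p = 0.0343) and without the right eye of RM03 (1.43, adjusted p = 0.0175). For RLBP1 the interval ran from -0.77 to 0.99, for RGR from -0.86 to 0.98 and for RDH11 from -0.60 to 0.96, so that changes of either sign lie within them. RBP3 differed by -0.12 ± 1.46, and without the right eye of RM04 by -3.07, which was called (adjusted p = 0.0353).

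Of the RPE markers in RPE/choroid, 3 of 11 were called higher and 3 lower at the fovea than at the periphery. BEST1 differed by 0.35 ± 0.36 (adjusted p = 0.46), TYRP1 by -0.39 ± 0.09 (adjusted p = 0.00506) and TTR by -0.97 ± 0.46 (adjusted p = 0.107). The endothelial markers were higher at the fovea in 6 of 6 cases. The summed rod markers reached 924 CPM in peripheral RPE/choroid, against at most 539 CPM at the fovea. The part of this mixture in the results was not tested.

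To describe the genes relative to the RPE content of a punch, the mean log2 CPM of the RPE markers, or the log2 CPM of BEST1 alone, was subtracted in each eye. Relative to the RPE markers, STRA6 was higher at the fovea than at the periphery by 2.59 ± 0.87 on the log2 scale (mean ± SD, n = 4 eyes) and RDH10 by 2.13 ± 0.41. Relative to BEST1 alone the differences were 2.0 ± 0.46 for STRA6, with a lowest eye of 1.34, and 1.54 ± 0.23 for RDH10, with a lowest eye of 1.30. Both genes thus kept a difference of the same direction in 4 of 4 eyes under either reference. A change of reference moves all genes of an eye by the same amount, and the other genes had smaller differences to start with. Relative to the RPE markers, RLBP1 differed by 0.50 ± 0.77, RDH11 by 0.49 ± 0.53 and RGR by 0.48 ± 0.81, and relative to BEST1 by -0.09 ± 0.41, -0.10 ± 0.41 and -0.12 ± 0.44, with eyes on both sides of 0 by either reference. RPE65 (1.33 ± 0.98), LRAT (1.35 ± 0.86) and ABCA4 (1.17 ± 0.51) lay between relative to the RPE markers, and were at 0.74 ± 0.66, 0.76 ± 0.51 and 0.57 ± 0.33 relative to BEST1. BEST1 alone was chosen as a reference after the data were seen, since TYRP1 and PMEL are also made by melanocytes, and these values carry no test.

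**Figure D4:**
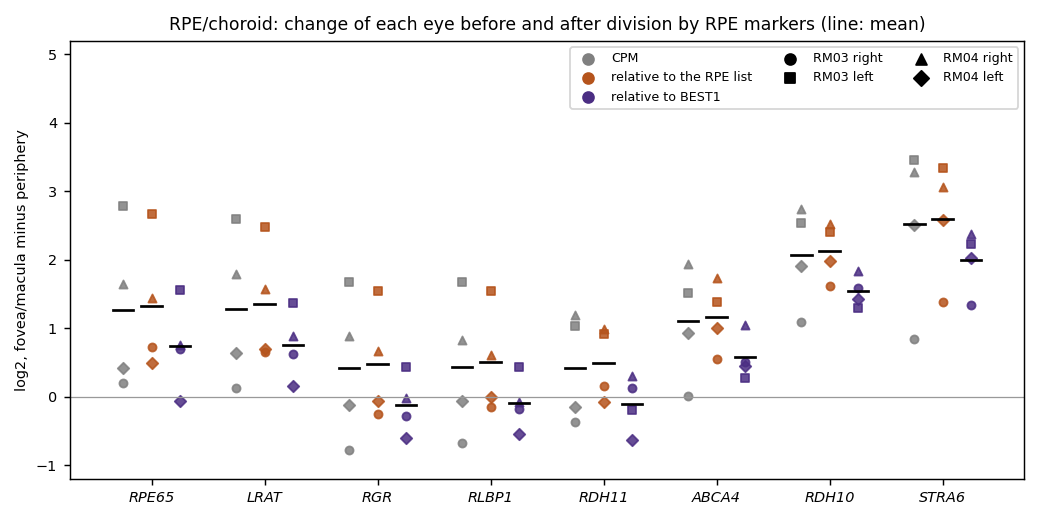
Log2 difference between fovea and periphery in RPE/choroid for each eye (shape: eye), as CPM (grey), relative to the RPE marker list (brown) and relative to BEST1 (purple), with a line at the mean of 4 eyes. RDH10 and STRA6 stay above 1 in 4 of 4 eyes relative to either reference, and relative to BEST1 the eyes of RLBP1, RDH11 and RGR lie on both sides of 0.

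In retina the same was done with the photoreceptor markers, whose rod and cone lists moved in opposite directions, with 9 of 9 rod markers called lower and 7 of 8 cone markers called higher at the fovea than at the periphery. What remained therefore depended on the list, and the lists alone were tried after the data were seen. Relative to the rod markers, ABCA4 was higher at the fovea by 0.94 ± 0.13 and RBP3 by 0.98 ± 0.29 (mean ± SD of log2 differences, n = 4 eyes). Relative to the cone markers, ABCA4 differed by -2.26 ± 0.15 and RBP3 by -2.22 ± 0.37, and relative to both lists together by -0.57 ± 0.13 and -0.53 ± 0.33. ABCA4 and RBP3 thus lay between the rod and the cone markers in 4 of 4 eyes. Any gene whose change lies between those of the lists gives these signs, so they are not particular to ABCA4 and RBP3. The median log2 fold change, fovea minus periphery, was -2.20 for the rod list, 0.89 for the cone list and -0.06 over all genes. RLBP1 was lower at the fovea in 4 of 4 eyes by each reference, by -0.75 ± 0.45 against the rod and -3.95 ± 0.45 against the cone markers. RPE65, LRAT, STRA6 and RDH11 were higher at the fovea relative to the rod markers (1.22, 1.65, 1.30 and 1.35) and lower relative to the cone markers (-1.98, -1.55, -1.90 and -1.85). RDH10 and RGR had eyes on both sides of 0 against the rod markers.

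The change with location was compared between the tissues by an interaction term, which is the fovea minus the other location in retina less the same difference in RPE/choroid. For the periphery 7 of 9 genes were called, all negative, where 40.2% of all genes were called, 21.2% negative and 19% positive. The median was -2.43, beside -0.03 over all genes. RDH10 had the largest term, -4.51 ± 0.56 (adjusted p = 3.11e-06): it rose toward the periphery in retina and fell in RPE/choroid. STRA6, which was called in opposite directions in the tissues too, had a term of -3.11 ± 0.65 (adjusted p = 7.24e-04).

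RLBP1 (-3.20 ± 0.63), RGR (-2.92 ± 0.64) and ABCA4 (-2.43 ± 0.46) were called as well. RPE65 (-1.97 ± 0.71, adjusted p = 0.0335) was not called without the right eye of RM03 (adjusted p = 0.0705), without the right (adjusted p = 0.159) or the left eye of RM04 (adjusted p = 0.0752), or without the RPE/choroid fovea library of the right eye of RM04 (adjusted p = 0.062). RDH11 (-1.21 ± 0.48) sat at the threshold, with an adjusted p of 0.0494, and its call was lost without the right (adjusted p = 0.0579) or the left eye of RM03 (adjusted p = 0.116), without the right eye of RM04 (adjusted p = 0.235) and without either of the libraries that stood apart (adjusted p = 0.0703 and 0.0906). Plain library totals (adjusted p = 0.0679), no low-count filter (adjusted p = 0.0552) and no animal covariate (adjusted p = 0.0592) lost the RDH11 call too. LRAT (-1.56 ± 0.66, adjusted p = 0.0664) was called without the right (adjusted p = 0.0492) or the left eye of RM03 (adjusted p = 0.0431). With all eyes kept, it was called by DESeq2 (-1.59, adjusted p = 0.0304) and with the nasal libraries in the fit (-1.63, adjusted p = 0.0264).

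Against the nasal location 5 of 9 genes were called, again all negative, where 23.5% of all genes were called, 12.5% negative and 11% positive. RDH10 (-3.09 ± 0.47, adjusted p = 2.83e-05), ABCA4 (-2.07 ± 0.39) and RLBP1 (-2.24 ± 0.55, adjusted p = 0.00346) were among them, and RLBP1 was not called without the right eye of RM04 (adjusted p = 0.0632). Blocking on the eye left 3 genes called, since RGR (-1.56, adjusted p = 0.0552) and RBP3 (-3.03, adjusted p = 0.0998) were lost. The RBP3 term of -3.35 ± 1.23 (adjusted p = 0.0484) rested on the foveal RPE/choroid library of the right eye of RM04, without which it was -0.73 (adjusted p = 0.628), and it was also not called without the right eye of RM03 (adjusted p = 0.0926) or the left eye of RM04 (adjusted p = 0.188). RGR (-1.58 ± 0.56, adjusted p = 0.0402) was also lost without the right eye of RM03 (adjusted p = 0.144), the right (adjusted p = 0.22) or the left eye of RM04 (adjusted p = 0.254), and without that same library (adjusted p = 0.0577). With no animal covariate RGR was not called (adjusted p = 0.145). DESeq2 (adjusted p = 0.114), RLE factors (adjusted p = 0.0502), plain library totals (adjusted p = 0.0507) and no low-count filter (adjusted p = 0.053) did not call RBP3. LRAT was called without the left eye of RM03 (-1.47, adjusted p = 0.0435), and STRA6 without the RPE/choroid periphery library of that eye (-1.35, adjusted p = 0.0462).

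Against the perimacula RLBP1 (-2.27 ± 0.62, adjusted p = 0.0212), RDH10 (-2.39 ± 0.54, adjusted p = 0.0069) and ABCA4 (-2.24 ± 0.46, adjusted p = 0.00396) were called, 3 of 9 genes where 11.5% of all genes were called, 5.64% negative and 5.85% positive. None of the 3 was called without the right eye of RM04 (adjusted p = 0.193, 0.11 and 0.0742), and ABCA4 alone was called without the right eye of RM03.

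Other genes of retinoid handling were taken from a list of 24, of which 19 had a single entry in the files and 18 were tested. In retina 15 of the 18 were called between fovea and periphery, 10 of them lower and 5 higher at the fovea, where 67% of all genes were called, 36% lower and 31% higher. RDH8 and RDH12, the dehydrogenases that reduce all-trans retinal in photoreceptors, were among these. RDH12 rose from 523 ± 47.5 CPM (SD, n = 4) at the fovea to 1681 ± 72.7 CPM at the periphery (-1.63 ± 0.11, adjusted p = 2.38e-07), and RDH8 from 49.0 ± 3.91 to 214 ± 35.3 CPM (-2.06 ± 0.14). OPN3, a non-visual opsin, went the other way, from 4.71 ± 1.47 to 0.515 ± 0.19 CPM (3.19 ± 0.29, adjusted p = 1.61e-06). TTR (-3.23), the plasma carrier of retinol-binding protein and also one of the RPE markers here, BCO2 (-2.55), a carotenoid-cleaving enzyme, and DHRS9 (-2.10) were also called lower at the fovea.

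In RPE/choroid 17 of the list were tested and 4 were called between fovea and periphery, 3 of them higher at the fovea, where 44.1% of all genes were called, 21.2% higher and 22.9% lower. RRH, the RPE opsin peropsin, fell from 472 ± 232 CPM at the fovea to 82.2 ± 61.8 CPM at the periphery (2.39 ± 0.60, adjusted p = 0.0084), and in retina it rose from 19.6 ± 2.33 to 61.6 ± 14.4 CPM. Its interaction term was -4.02 ± 0.67 (adjusted p = 8.90e-05). SCARB1 (0.59), a lipoprotein receptor that takes up carotenoids, and SLC27A1 (0.35), a fatty acid transporter, were called higher at the fovea, and DHRS9 (-1.17) was called lower. Against the perimacula or the nasal location, none of the 17 differed from the fovea in RPE/choroid by edgeR.

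Genes with the most similar profile over the 16 libraries of the tissue where a gene is higher were named by the root mean square difference of centred log2 CPM. In RPE/choroid RLBP1 and RGR were each other's nearest gene among 10203 compared, at 0.126, against a median distance of 0.873 from RLBP1 to all genes. RPE65 was closest to VAT1L (0.184), MELK (0.217) and LRAT (0.221), and LRAT was closest to VAT1L (0.147), CSPG5 (0.172) and MELK (0.194). RLBP1 was next to SEC14L2 (0.171) and DSP (0.179), and RGR to DSP (0.158) and CA14 (0.218). RDH10 was closest to PDE1C (0.25), NEGR1 (0.275) and OPCML (0.296). RDH11 was closest to ACSL6 (0.133), TMEM229B (0.21) and TRIM9 (0.212).

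In retina, ABCA4 was closest to MTA2 (0.0891), PROM1 (0.0998) and CLMN (0.11) among 9817 genes, and RBP3 to KIFC3 (0.16), ENGASE (0.169) and CD82 (0.172). LRAT was thus among the nearest 3 genes of RPE65, and RLBP1 and RGR among those of each other, whereas RDH10 and RDH11 had none of the other 8 genes among their nearest 3. The points of these profiles share eyes and library depth, and the distances are a description without a test. In RPE/choroid, the periphery library of the left eye of RM03 was the lowest for RPE65, LRAT, RLBP1, RGR, RDH10 and RDH11. That library weighs heavily in their profiles, and the distances were not computed without it.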

How the data were processed

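RNA-seq of 32 libraries was used. The authors quantified each of 136 sequencing lanes against Mmul_8.0.1 with Salmon 0.13 and tximport and deposited estimated counts per gene (expected counts, length-scaled TPM brought back to library size), not normalized. The values of a lane added up to between 7932259 and 39439054. Each lane file has 19432 entries, 10 of which repeat an identifier. Only the first entry of such an identifier was kept. Lanes of a library were summed, because they are runs of the same library, and rounded.

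Tests used edgeR 4.0.16 (TMM, filterByExpr at a minimum count of 10, quasi-likelihood, limma 3.58.1, R 4.3.3) with the monkey as a covariate, since the 2 animals differ, and adjustment over all genes tested. The fovea/macula, perimacula and periphery libraries were fitted together, within a tissue or, for tissue comparisons and interaction terms, across both, and comparisons with the nasal location used all 4 locations. Printed CPM are on TMM-scaled totals of all 32 libraries, and log2 CPM has a prior count of 2. Intervals of fold changes (95%) use a normal approximation. Counts were simulated with 200 genes changed by 1.5 on the log2 scale. The fit recovered 77.5% for fovea/macula against periphery in retina and 72% in RPE/choroid. It recovered 59% for their interaction term and 68% for the tissues at the fovea/macula. In the same order, 4.32%, 4%, 4.84% and 5.56% of calls were false. The simulated libraries were independent, with no effect of animal or eye, so these shares do not describe eyes nested in 2 animals.

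Same-numbered libraries come from the same eye, as the labels give. Over 1000 genes, the deviations of libraries of the same eye correlated at 0.561 in retina and 0.387 in RPE/choroid on average, and those of fellow eyes at 0.555 and 0.403, with the monkey not removed.

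Alternatives were the eye as a block or no covariate, DESeq2 1.42.0, RLE factors or plain library totals, no filter or a stricter one (10 counts or more in each library), fits on the compared locations only or with nasal libraries added, leaving out each eye, another marker reference and, added after seeing the data, BEST1, rod markers or cone markers alone as reference and leaving out either RPE/choroid library that stood apart. The genes and lists were chosen with earlier results of these data known. Named genes are the members, at most 6 other retinoid genes per comparison by size of change among those called, the 3 nearest genes of each member above a mean log2 CPM of 3, and listed markers. The nearest genes of STRA6 are not reported here. RDH14 and AWAT2 were not analysed here, and RDH16 and RETSAT, each with several entries of the symbol, were not used. Gene lengths, sequences and coordinates of the files' build were not used here. Python 3.11.15 with numpy 2.4.6, pandas 2.3.3 and matplotlib 3.10.9 served for the rest.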

Additional observations from a re-analysis of the deposited data

Results flagged for a closer look

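In 3 of 72 groups of 4 eyes a single eye lay far from the others by Dixon's criterion, which chance does in about 1 of 20 groups. They were RPE65 in nasal retina, with 188 CPM in the right eye of RM03, RBP3 in foveal RPE/choroid, with 340 CPM in the right eye of RM04, and ABCA4 in nasal RPE/choroid, with 230 CPM in the left eye of RM04 below 245 to 247 CPM in the others.

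The change with location differed between retina and RPE/choroid by the interaction term in 15 cases. Between fovea/macula and periphery the terms were -2.43 for ABCA4, -1.21 for RDH11, -2.92 for RGR, -3.20 for RLBP1, -1.97 for RPE65, -3.11 for STRA6 and -4.51 for RDH10. For fovea/macula against nasal location they were -2.07 for ABCA4, -3.35 for RBP3, -1.58 for RGR, -2.24 for RLBP1 and -3.09 for RDH10, and for fovea/macula against perimacula -2.24 for ABCA4, -2.27 for RLBP1 and -2.39 for RDH10.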

How the results depend on the processing

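Of 84 called differences of the 9 genes, 1056 of 1120 values under the alternatives kept their call, 64 lost it and none changed direction. Of 87 uncalled ones, 34 of 1202 values gained a call, and 56 crossed 0 while uncalled. Leaving out the left eye of RM04 reduced the genes called in RPE/choroid between fovea/macula and periphery from 2 to 1, and the counts without an eye ran from 1 to 3. The count of interaction terms between fovea/macula and perimacula was 3 and ran from 0 to 3 without an eye, with 0 without the right eye of RM04 and 1 without the right eye of RM03. For the nasal location it was 5, with 3 under the eye as a replicate block, 3 without the foveal RPE/choroid library of the right eye of RM04, and 2 to 6 without an eye. Apart from the values given beside the results, the block changed no other call. Limits are the 2 animals, the flow cell shared by all periphery libraries and, at a depth of 42448903 estimated counts or more, the spread between RPE/choroid punches.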
